A study of Mus musculus with 6 samples.

Results

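The 10 core circadian clock genes Arntl, Clock, Npas2, Cry1, Cry2, Per1, Per2, Per3, Nr1d1 and Dbp were followed through every liver library of the series. They were chosen by gene name, and all 10 were found among the 34745 genes of the deposited table and passed the filter on low counts. The livers came from mice labelled Sox9HKO (replicates 9, 10 and 12) or Sox9f/f, the controls with floxed Sox9 alleles (replicates 5, 6 and 8). All 6 had eaten MCD, a diet short of methionine and choline that gives mice an inflamed fatty liver, for 6 weeks. The sources used here do not give the cells meant to lose Sox9, the Cre driver, or the age and sex of the mice. Neither do they give the hour at which each liver was taken, or the lighting and feeding schedule, so the values of each library are given below.

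The clock of a liver cell is a loop of transcription. The partners BMAL1 (the product of Arntl) and CLOCK, or NPAS2 in place of CLOCK, bind E-box sequences and switch on the Per and Cry genes, Nr1d1 and Dbp. The PER and CRY proteins then hold that pair in check, while REV-ERBα, the product of Nr1d1, represses Arntl, Npas2 and Clock through ROR response elements. DBP activates genes through D-boxes, Per3 among them. In the liver of a mouse kept in light and dark, Arntl and Npas2 RNA is high around the end of the night, Nr1d1 and Dbp RNA in the light phase, Per RNA around dusk and Cry1 RNA in the night.

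Total counts per library lay between 22826962 and 27286864. The targeted gene, Sox9, ran against a loss in the tissue as a whole, with 411, 491 and 626 counts in the libraries labelled Sox9HKO against 127, 138 and 143 in those labelled Sox9f/f, so every direction below is one between labels. Hepatocyte markers were present in every library, and the 6 on the list summed to 69530 to 78030 CPM (counts scaled to a common library size, with TMM factors) in libraries labelled Sox9HKO and 86490 to 93170 CPM in those labelled Sox9f/f. All 4 bile duct markers had higher means in libraries labelled Sox9HKO, with summed levels of 102.5 to 192.1 CPM there against 44.44 to 61.16 CPM in libraries labelled Sox9f/f. The 5 stellate cell markers did likewise, at 262.3 to 368.1 against 214.4 to 253.3 CPM. The 5 macrophage markers summed to 450.7 to 918.5 CPM in libraries labelled Sox9HKO and 410.5 to 655.5 CPM in those labelled Sox9f/f. In tissue RNA, fewer cells of a type and less RNA per cell cannot be told apart, and the part of these markers in any difference below was not tested.

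The elements through which the loop runs can be read near the start sites of some of these genes. RefSeq start-site windows on GRCm38.p6, from 250 bases before to 50 after each start, were matched for 9 of the 10 core genes and 7 of the 9 accessory clock genes described further below. They were searched on both strands for the E-box CACGTG, the D-box TTATGTAA and the ROR response element. The stretches below, 5′ to 3′ along the gene, show the matches in capitals for genes whose levels are compared in what follows. The first is Per1 at chr11:69098733-69098838 (plus strand), then Cry1 at chr10:85185059-85185164 (minus), Per3 at chr4:151044786-151044900 (minus), Ciart at chr3:95882247-95882364 (minus) and Arntl at chr7:113207528-113207556 (plus), where the match lies just after an annotated start.
Per1 E-box: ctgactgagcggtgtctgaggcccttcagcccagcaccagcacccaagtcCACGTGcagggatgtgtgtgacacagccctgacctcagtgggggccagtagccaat
Cry1 E-box: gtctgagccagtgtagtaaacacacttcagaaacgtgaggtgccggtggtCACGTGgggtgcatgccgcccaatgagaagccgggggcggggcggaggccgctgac
Per3 D-boxes: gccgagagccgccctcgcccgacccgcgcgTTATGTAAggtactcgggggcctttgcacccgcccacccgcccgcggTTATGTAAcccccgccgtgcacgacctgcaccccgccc
Ciart E-boxes: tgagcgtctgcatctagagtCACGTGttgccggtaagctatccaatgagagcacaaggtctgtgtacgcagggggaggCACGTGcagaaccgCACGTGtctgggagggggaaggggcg
Arntl ROR element: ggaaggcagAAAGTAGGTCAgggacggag

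The E-box occurred in 7.15% of all 32851 windows, the D-box in 0.938% and the ROR element in 0.384%. Among core genes the E-box was in the windows of Per1 and Cry1, the D-box at 2 places in that of Per3, and the ROR element in that of Arntl. Among accessory genes the E-box was in the windows of Ciart, at 3 places, and of Bhlhe41 and Tef. These matches are letters in a window and do not show binding.

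None of the 10 core clock genes passed the test between the labels. In edgeR's quasi-likelihood test 0 of the 10 passed an adjusted p of 0.05, as did 0% of the 14137 genes tested, and DESeq2 also called 0 of the 10, where it called 4.46% of genes. At an unadjusted p under 0.05 edgeR gave 0 of the 10, against 19.8% of all tested genes. That count was not the same under every alternative with all 6 libraries. Per2 came under 0.05 in DESeq2 and in limma voom, and Per3 did in edgeR with library-size scaling. The groups overlapped for all 10, whereas they did not overlap for 26.5% of all tested genes. The members split evenly, with 5 positive and 5 negative log2 fold changes and a median of -0.09, beside 0.00 over all tested genes. A p that misses the threshold does not show equal levels, and the fold changes below carry standard errors of 0.17 to 0.73 on the log2 scale.

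The activators of the loop were led by 1 library. Arntl (ENSMUSG00000055116, chromosome 7, 113207465 to 113314122) stood at 7.35, 1.62 and 1.34 CPM in Sox9HKO replicates 9, 10 and 12, against 3.20, 1.23 and 3.12 CPM in Sox9f/f replicates 5, 6 and 8. Replicate 9 was the highest of all 6, and the other libraries labelled Sox9HKO lay within the range of Sox9f/f. Behind these values are few reads, 197, 44 and 37 counts in Sox9HKO and 70, 32 and 77 in Sox9f/f. The exact 95% Poisson interval of replicate 9 was 6.36 to 8.45 CPM, which covers counting error only and does not reach the upper bound of 4.04 CPM for Sox9f/f replicate 5, the next highest. The log2 fold change was 0.45 ± 0.67 (SE, edgeR adjusted p = 0.732). Without Sox9HKO replicate 9 it turned to -0.75 ± 0.46.

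Npas2 (ENSMUSG00000026077, chromosome 1, 39193731 to 39363236), the stand-in partner for Clock, followed the same order at its top. It stood at 2.69, 0.553 and 0.327 CPM in Sox9HKO replicates 9, 10 and 12 and at 1.64, 0.847 and 1.05 CPM in Sox9f/f replicates 5, 6 and 8. Replicate 9 again had the highest value and the other libraries labelled Sox9HKO the lowest, from 72, 15 and 9 counts against 36, 22 and 26. The log2 fold change of 0.01 ± 0.73 (adjusted p = 0.994) thus averaged values from both ends. Without replicate 9 it was -1.41 ± 0.50, with an unadjusted p of 0.0257 and an edgeR adjusted p of 0.243. Leaving out Sox9f/f replicate 6 or 8 also turned its sign, to -0.17 and -0.06.

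Clock (ENSMUSG00000029238, chromosome 5, 76209868 to 76304792), the partner of BMAL1 and the least rhythmic of the activators in liver, varied less. It had 38.5, 19.1 and 36.2 CPM in Sox9HKO replicates 9, 10 and 12 and 26.8, 20.5 and 25.3 CPM in Sox9f/f replicates 5, 6 and 8. Sox9HKO replicate 10 was the lowest library and the other libraries labelled Sox9HKO the highest. This gave a log2 fold change of 0.37 ± 0.26 (adjusted p = 0.441). Clock overlaps the pseudogene Ube2n-ps1 on its own strand, which was given 414 to 497 counts per library.

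**Figure D1:**
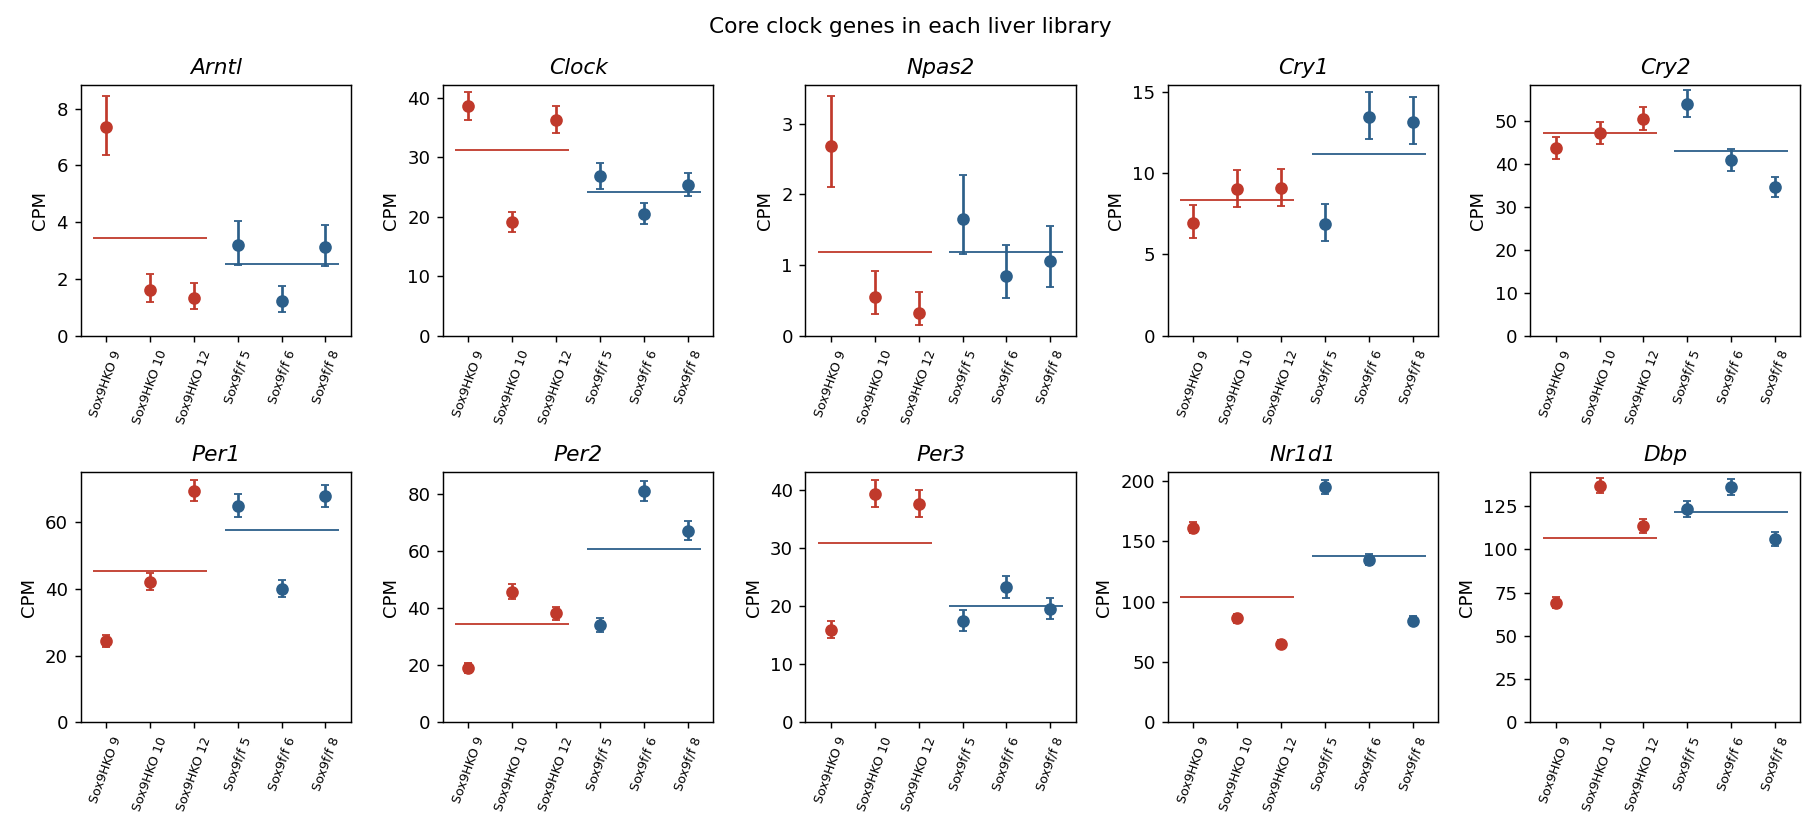
Level of each core clock gene in each library, in CPM on linear axes that start at 0 (points; bars are exact 95% Poisson intervals for counting error, lines are group means; red Sox9HKO, blue Sox9f/f). The groups overlap for all 10 genes, and Sox9HKO replicate 9 is the highest library for Arntl, Clock and Npas2 and the lowest for Per1, Per2, Per3 and Dbp.

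The repressors of the PER family did not move as one. Per2 (ENSMUSG00000055866, chromosome 1, 91415982 to 91459324), which holds the activators in check with the CRY proteins, had 19.0, 45.7 and 38.1 CPM in Sox9HKO replicates 9, 10 and 12 and 33.9, 80.8 and 67.0 CPM in Sox9f/f replicates 5, 6 and 8. Sox9f/f replicate 5 fell among the libraries labelled Sox9HKO, and the other Sox9f/f libraries lay above all of them. The means were 34.3 ± 13.8 and 60.6 ± 24.1 CPM (SD, n = 3 each), a log2 fold change of -0.82 ± 0.38. Its edgeR adjusted p of 0.276 was the lowest of the 10, and over all alternatives it ranged from 0.181 to 0.596.

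Per3 (ENSMUSG00000028957, chromosome 4, 151003652 to 151044665), a PER protein that is dispensable for the rhythm itself, leaned the other way. It had 15.9, 39.4 and 37.6 CPM in Sox9HKO replicates 9, 10 and 12 and 17.5, 23.3 and 19.5 CPM in Sox9f/f replicates 5, 6 and 8. Sox9HKO replicate 9 was the lowest library of all, while replicates 10 and 12 were above every Sox9f/f library. Its log2 fold change was 0.62 ± 0.31 (adjusted p = 0.311). Without replicate 9 it was 0.94 ± 0.16, with an unadjusted p of 6.23e-04 and an edgeR adjusted p of 0.159. Replicate 9 was singled out from these same values, so the p without it is a description only. Per3 overlaps Camta1 on the same strand, which held 83 to 124 counts per library.

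Per1 (ENSMUSG00000020893, chromosome 11, 69095217 to 69109960), the PER gene that also answers to glucocorticoid and cAMP signals, spread widely in both groups. It had 24.2, 42.0 and 69.3 CPM in Sox9HKO replicates 9, 10 and 12 and 64.7, 39.955 and 67.7 CPM in Sox9f/f replicates 5, 6 and 8. Its lowest library was Sox9HKO replicate 9 and its highest Sox9HKO replicate 12, so the Sox9f/f values lay wholly within the range of the other group. For Per1 the log2 fold change was -0.35 ± 0.36 (adjusted p = 0.609), and -0.04 ± 0.29 without replicate 9.

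Of the cryptochromes, the main repressors of BMAL1 and CLOCK, Cry1 (ENSMUSG00000020038, chromosome 10, 85131702 to 85185054) had 6.94, 8.99 and 9.08 CPM in Sox9HKO replicates 9, 10 and 12 and 6.89, 13.5 and 13.1 CPM in Sox9f/f replicates 5, 6 and 8. As for Per2, Sox9f/f replicates 6 and 8 lay above the rest and Sox9f/f replicate 5 did not. Cry2 (ENSMUSG00000068742, chromosome 2, 92403646 to 92434043) was the steadiest member, at 43.8, 47.3 and 50.6 CPM in Sox9HKO against 54.1, 40.9 and 34.6 CPM in Sox9f/f. Their log2 fold changes were -0.42 ± 0.27 and 0.13 ± 0.17 (adjusted p = 0.400 and 0.692). The sign of Cry2 turned, to -0.01, without Sox9f/f replicate 8.

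Nr1d1 (ENSMUSG00000020889, chromosome 11, 98767932 to 98775333), the repressor of Arntl, had 161, 86.1 and 64.9 CPM in Sox9HKO replicates 9, 10 and 12 and 195, 135 and 84.3 CPM in Sox9f/f replicates 5, 6 and 8. Both groups spread widely, with the highest over the lowest library at 2.49 in Sox9HKO and 2.31 in Sox9f/f. Sox9f/f replicate 5 and Sox9HKO replicate 9 were the highest libraries, which were also the pair with the most Npas2. Between labels the log2 fold change was -0.41 ± 0.38 (adjusted p = 0.574). It was -0.87 ± 0.34 without Sox9HKO replicate 9, with an unadjusted p of 0.0382 and an edgeR adjusted p of 0.270. It was -0.07 without Sox9f/f replicate 5 and -0.16 without Sox9HKO replicate 12, the smallest of the leave-one-out values, so its size rested on single libraries of both labels. Nr1d1 overlaps Thra on the opposite strand, which held 313 to 456 counts, and the sources used here do not say whether counting used strand.

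Dbp (ENSMUSG00000059824, chromosome 7, 45705088 to 45710155), the D-box activator, had 69.1, 137 and 114 CPM in Sox9HKO replicates 9, 10 and 12 and 123, 136 and 106 CPM in Sox9f/f replicates 5, 6 and 8. One library, Sox9HKO replicate 9, stood below the other 5, which lay close together. The log2 fold change was -0.19 ± 0.23 (adjusted p = 0.668), and 0.04 ± 0.16 without replicate 9. Dbp overlaps Sphk2 on the opposite strand, whose highest count, 2033, was in that same library.

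Sox9HKO replicate 9 thus had the highest or lowest level for 7 of the 10 members, the highest for 3 and the lowest for 4. Its place was a near tie for Clock and Per3, and exact 95% Poisson intervals overlapped for Clock, Per3 and Npas2. For Clock the intervals were 36.2 to 40.9 CPM in replicate 9 and 34.0 to 38.5 CPM in Sox9HKO replicate 12. For Per3 they were 14.5 to 17.5 CPM in replicate 9 and 15.8 to 19.3 CPM in Sox9f/f replicate 5. For Npas2 they were 2.10 to 3.38 CPM in replicate 9 and 1.15 to 2.28 CPM in Sox9f/f replicate 5. Each other library was at an extreme for 1 to 3 members. Relative to each gene's mean over the 6 libraries, replicate 9 was at 1.57 for Arntl and 1.41 for Npas2 and at -1.17 for Per2, -0.99 for Per1 and -0.69 for Dbp, in log2 CPM. The other libraries of that label sat on the opposite side for Arntl, at -0.56 in replicate 10 and -0.82 in replicate 12, and for Npas2, at -0.72 and -1.36. Sox9f/f replicate 5 shared the sign of replicate 9 for Arntl, Npas2, Nr1d1, Per2, Per3 and Cry1. It did so by less for all of these but Nr1d1 and Cry1. For Clock, Sox9f/f replicate 5 lay almost at the mean, at 2.8e-04 beside 0.52 in replicate 9. Replicate 9 was not at an extreme in total counts or in the share of albumin counts, at 6.19%, where the other libraries labelled Sox9HKO had 6.55% and 6.05%. Its share of mitochondrial counts, 5.20%, was the lowest of the 6, beside 6.66% and 6.71% in the other libraries of its label and 5.60% to 5.97% in Sox9f/f. Its macrophage marker sum of 667.9 CPM lay between those of replicates 10 and 12, as did its stellate, endothelial and neutrophil sums. Its hepatocyte marker sum of 69530 CPM was the lowest of the 6, close to 69800 CPM in replicate 12. Its bile duct marker sum of 102.5 CPM was the lowest of its label. Its lymphocyte marker sum of 4.218 CPM was the highest of the 6, beside 3.279 CPM in replicate 10.

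Without Sox9HKO replicate 9, edgeR called 0 of the 10 members at an adjusted p of 0.05, and 3 of the 10 (Npas2, Per3 and Nr1d1) were under an unadjusted p of 0.05, beside 16.9% of all genes then tested. Leaving out other libraries gave 0 to 2 members at that level. They were Clock and Per2 without Sox9HKO replicate 10 (background 12.7%), Per1 without Sox9HKO replicate 12 (22.7%) and Cry1 and Per2 without Sox9f/f replicate 5 (19.8%). There were 0 without Sox9f/f replicate 6 (13.9%) or 8 (12.7%). Which members came under 0.05 therefore depended on the library left out. Because replicate 9 was singled out from the values of these members, p-values without it describe the remaining libraries and are not separate tests.

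**Figure D2:**
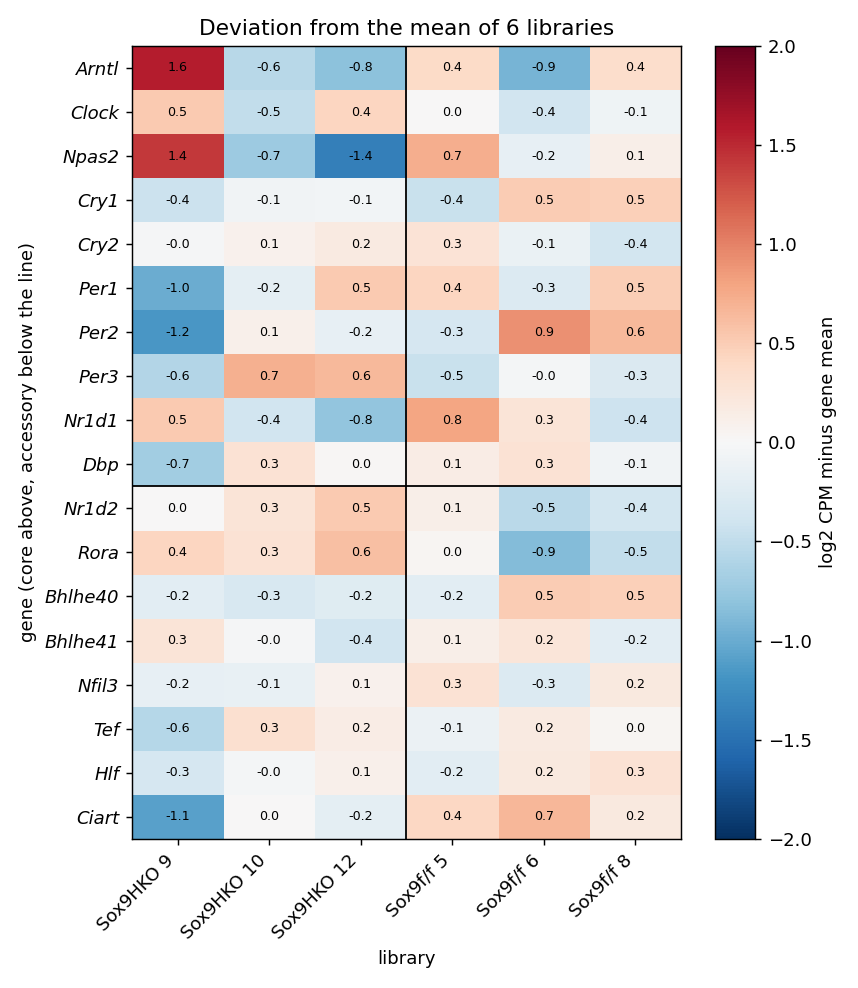
Log2 CPM of the core (above the horizontal line) and 8 accessory (below it) clock genes in each library, minus that gene's mean over the 6 libraries. The column of Sox9HKO replicate 9 runs from 1.57 for Arntl to -1.17 for Per2, and the vertical line parts the labels.

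Differences between paired members within a library do not rest on how libraries are scaled. For members with few counts they do rest on the count added before the logarithm. The pairs are not readings of phase. Nr1d1 and Npas2 lay on the same side of their means in Sox9HKO replicates 9, 10 and 12 and Sox9f/f replicate 5. They lay on opposite sides in Sox9f/f replicates 6 and 8. Dbp minus Arntl, in log2 CPM, was 3.22, 6.33 and 6.32 in Sox9HKO replicates 9, 10 and 12 and 5.23, 6.70 and 5.05 in Sox9f/f replicates 5, 6 and 8. The value of replicate 9 was the lowest, and those of replicates 10 and 12 lay near Sox9f/f replicate 6. Nr1d1 minus Npas2 was 5.87, 7.09 and 7.33 in Sox9HKO against 6.82, 7.19 and 6.22 in Sox9f/f. Per3 minus Clock was -1.27, 1.04 and 0.05 in Sox9HKO against -0.61, 0.19 and -0.37 in Sox9f/f. With the prior count of 2 used for these values, replicate 9 was the lowest for all 3 pairs. The group means differed by -0.37, 0.02 and 0.21, less than the SD within Sox9HKO of 1.79, 0.78 and 1.16.

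For Nr1d1 minus Npas2 this order depended on the scale, and Npas2 had 9 to 72 counts per library. In log2(CPM + 1) Sox9f/f replicate 8 was the lowest library at 5.38, beside 5.46 in Sox9HKO replicate 9. In log2(FPKM + 0.5) Sox9HKO replicate 9 was the highest library of its label at 5.52, and Sox9f/f replicate 8 was the lowest of all at 5.08. On these scales the group means differed by -0.29 and -0.31, more than the SD within Sox9HKO of 0.17 and 0.21 but less than the SD within Sox9f/f of 0.48 and 0.50. With one library left out, the difference between group means ran from -0.89 to 0.66 for Dbp minus Arntl, from -0.26 to 0.47 for Nr1d1 minus Npas2 and from -0.34 to 0.81 for Per3 minus Clock. The first turned positive without Sox9HKO replicate 9 (0.66) or Sox9f/f replicate 6 (0.15). The second turned negative without Sox9HKO replicate 10 (-0.15) or 12 (-0.26) or Sox9f/f replicate 8 (-0.24), and the third without Sox9HKO replicate 10 (-0.34). Members of a pair were chosen with earlier results known, and no test was made.

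**Figure D3:**
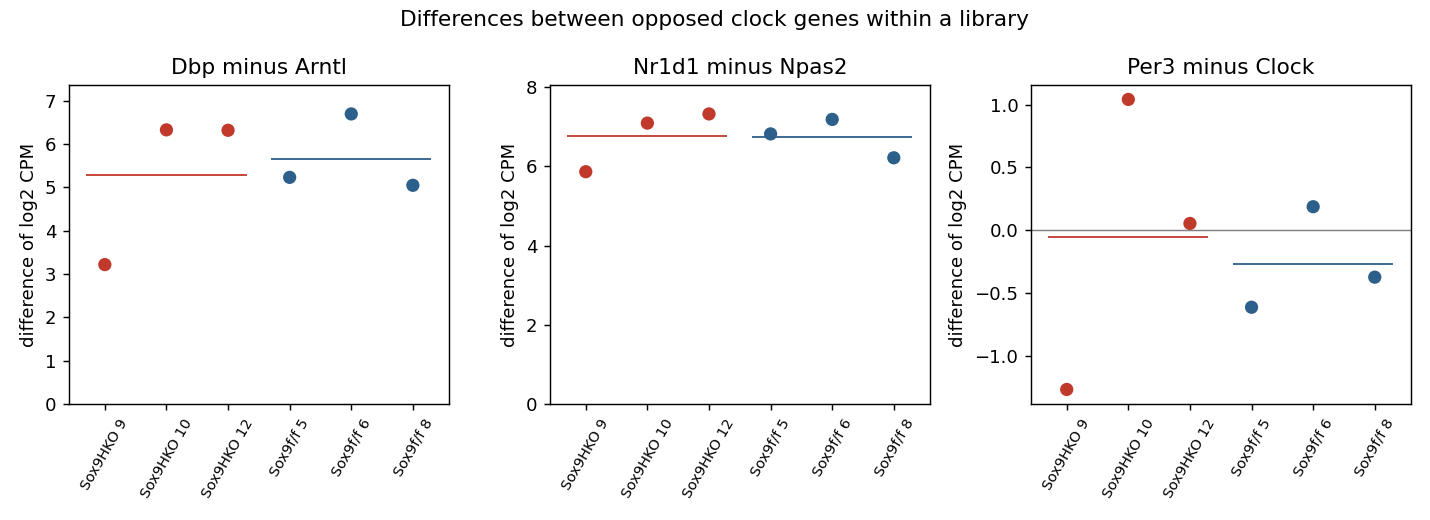
Difference in log2 CPM (prior count of 2) between paired core clock genes in each library (points, with lines for group means, red for Sox9HKO and blue for Sox9f/f). Sox9HKO replicate 9 has the lowest value in each panel, at 3.22, 5.87 and -1.27, which for Nr1d1 minus Npas2 did not hold in log2(CPM + 1) or log2(FPKM + 0.5).

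The core clock genes varied more between libraries of the same label than most genes did. The within-group SD of log2 CPM, pooled over both labels, had a median of 0.58 over the 10 members, beside 0.23 over all tested genes, and all 10 lay above that median. Npas2 and Arntl had the widest spread, at 1.08 and 1.07, and Cry2 the narrowest at 0.24. Counting error alone would give 0.32 for Npas2, 0.20 for Arntl and 0.03 to 0.10 for the others. Within Sox9HKO the members' median SD was 0.67 beside 0.22 over all genes, and within Sox9f/f it was 0.44 beside 0.20. Without Sox9HKO replicate 9 the pooled median was 0.45 beside 0.23, and 8 of the 10 stayed above the median of all genes. Per3 and Dbp then had SDs of 0.17 and 0.18. A wide spread was not particular to the core members. With all libraries, the lists described below had median SDs of 0.55 for immediate early genes and 0.51 for both feeding-responsive and temperature-responsive genes. The medians were 0.45 for rhythmic outputs and 0.40 for glucocorticoid-responsive genes. They were lower for the accessory clock factors, at 0.29, and for the enzymes and cofactors that act on clock proteins, at 0.17.

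**Figure D4:**
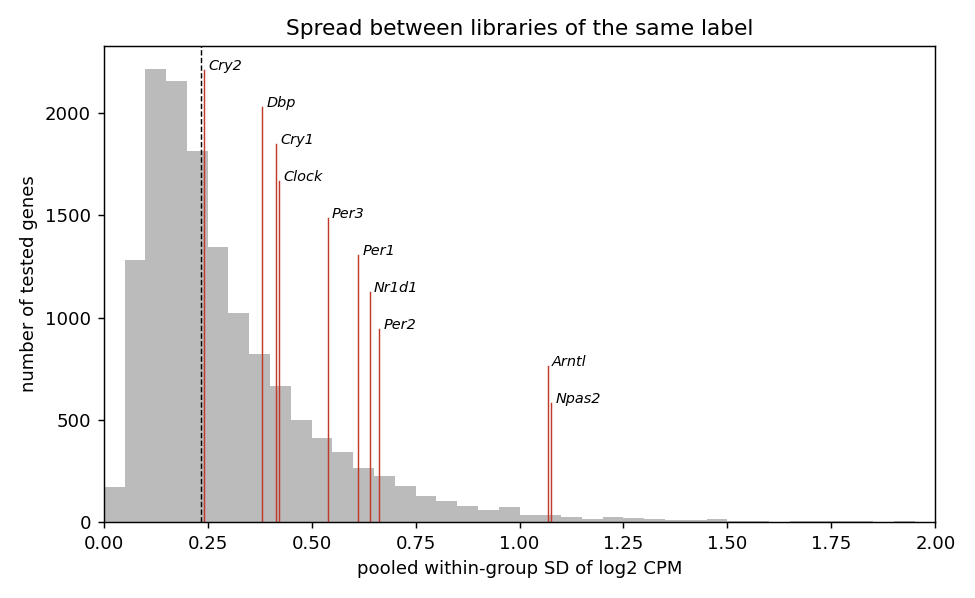
Number of tested genes (grey) by pooled within-group SD of log2 CPM, with the 10 core clock genes marked in red and the median of all tested genes, 0.23, as a dashed line (15 genes lie beyond the axis). The members run from Cry2 at 0.24 to Npas2 at 1.08.

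Levels were compared between genes per length, as the deposited FPKM (counts per length of the gene and per library total). Nr1d1 had the highest group means, at 31.1 ± 15.9 FPKM in Sox9HKO and 37.8 ± 14.96 FPKM in Sox9f/f (SD, n = 3 each). Dbp followed at 21.8 ± 6.71 and 23.2 ± 2.58 FPKM, and these neighbours overlapped within their SD. In Sox9HKO replicates 10 and 12 Dbp was above Nr1d1, at 27.8 and 23.1 against 25.2 and 19.0 FPKM. In Sox9HKO replicate 9 it was below, at 14.6 against 49.0 FPKM. Dbp, lowest at 14.6 FPKM, exceeded each of the remaining members in all 6 libraries. Cry2, Per1 and Per2 formed the next level, with means of 5.64 to 7.10 FPKM in Sox9HKO and 6.02 to 9.86 FPKM in Sox9f/f, and could not be ordered beyond their spread. Cry1 followed at 2.87 ± 0.359 and 3.57 ± 1.19 FPKM, above Per3 at 1.52 ± 0.215 FPKM in Sox9f/f but not beyond its spread in Sox9HKO. Clock stood at 1.46 ± 0.513 and 1.05 ± 0.150 FPKM, and Arntl at 1.25 ± 1.25 and 0.837 ± 0.375 FPKM, which overlapped. Npas2 was the least abundant member in every library, between 0.0678 and 0.579 FPKM.

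Beside the core stood 9 accessory clock factors, all tested. In edgeR 0 of them passed an adjusted p of 0.05, and 4 were under an unadjusted p of 0.05, 2 higher and 2 lower in libraries labelled Sox9HKO, where 9.74% and 10.1% of all genes were. Their median log2 fold change was -0.16. The pair with higher means acts on the ROR element from opposite sides. Rora, an activator there, had 51.5, 46.4 and 58.0 CPM in Sox9HKO replicates 9, 10 and 12 and 39.0, 20.8 and 27.0 CPM in Sox9f/f replicates 5, 6 and 8. These groups did not overlap, as for 12.2% of genes in that direction, and the log2 fold change was 0.85 ± 0.22. The edgeR adjusted p of Rora was 0.151, that of DESeq2 was 0.0200, and the range over alternatives was 0.0200 to 0.362. Nr1d2, the gene of REV-ERBβ and a repressor on the same element, had 79.7, 94.9 and 114 CPM in Sox9HKO and 85.8, 54.6 and 61.8 CPM in Sox9f/f. It overlapped between labels through Sox9f/f replicate 5, at a log2 fold change of 0.51 ± 0.20 (edgeR adjusted p = 0.217). Nr1d1, its paralog, had a log2 fold change of the opposite sign.

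The pair with lower means represses E-box transcription. Ciart, also called Chrono, which binds the BMAL1 complex, had 5.08, 11.02 and 9.48 CPM in Sox9HKO replicates 9, 10 and 12 and 14.6, 17.4 and 12.5 CPM in Sox9f/f replicates 5, 6 and 8. All 3 libraries labelled Sox9HKO were below all Sox9f/f libraries, as for 14.3% of genes in that direction, with a log2 fold change of -0.80 ± 0.28 (edgeR adjusted p = 0.191). Bhlhe40, or DEC1, which competes for E-boxes, had 174.0, 162 and 170 CPM in Sox9HKO against 174.2, 286 and 279 CPM in Sox9f/f. Its groups were parted by a near tie between Sox9HKO replicate 9 and Sox9f/f replicate 5, and the log2 fold change was -0.55 ± 0.19 (adjusted p = 0.186). Over leave-one-out fits, Rora stayed under an unadjusted p of 0.05 in all 6, Ciart lost it without Sox9f/f replicate 6, Bhlhe40 without Sox9HKO replicate 10 or Sox9f/f replicate 6 or 8, and Nr1d2 without Sox9HKO replicate 10 or 12 or Sox9f/f replicate 6 or 8.

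**Figure D5:**
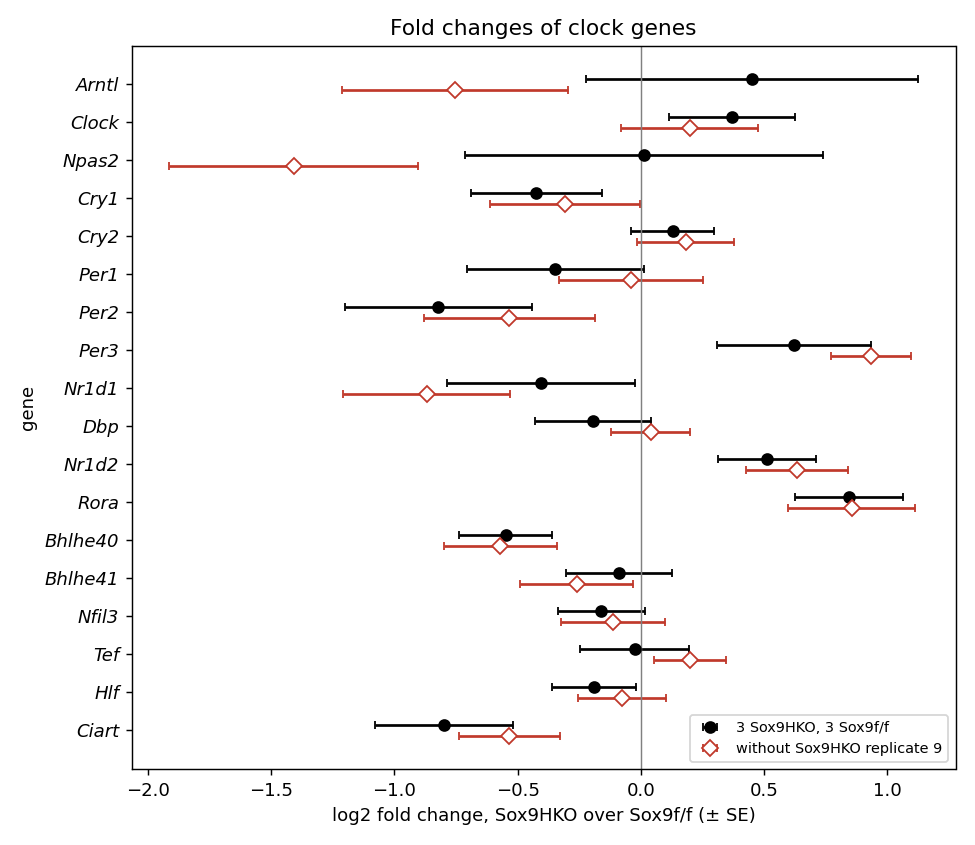
Log2 fold change, Sox9HKO over Sox9f/f, with SE from edgeR for the core (Arntl to Dbp) and 8 accessory (Nr1d2 to Ciart) clock genes, with all 6 libraries (black) and without Sox9HKO replicate 9 (open diamonds). Without that library Arntl stands at -0.75 and Npas2 at -1.41, against 0.45 and 0.01 with all libraries, and Rora at 0.86 against 0.85.

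Of the other accessory factors 4 are described here, none of them called. Tef and Hlf, which bind D-boxes as DBP does, had log2 fold changes of -0.02 ± 0.22 and -0.19 ± 0.17. Tef had 123, 230 and 205 CPM in Sox9HKO replicates 9, 10 and 12 and 169, 209 and 189 CPM in Sox9f/f replicates 5, 6 and 8, so that replicate 9 was its lowest library, as it was for Dbp. Without that library the log2 fold change of Tef turned to 0.20. Nfil3, or E4BP4, which represses through D-boxes, stood at -0.16 ± 0.18. Bhlhe41, or DEC2, a relative of Bhlhe40, stood at -0.09 ± 0.22.

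Of 11 enzymes and cofactors that act on clock proteins, all were tested and 0 passed in edgeR. The list median was 0.10, and unadjusted p-values under 0.05 came from 2 genes with higher means and 0 with lower ones, beside 9.74% and 10.1% of all tested genes, so that the 2 of 11 lay near the 19.8% of genes in either direction. One of these was Gsk3b, a kinase with several clock substrates, with 51.3, 62.1 and 79.1 CPM in Sox9HKO replicates 9, 10 and 12 and 42.5, 47.1 and 49.0 CPM in Sox9f/f replicates 5, 6 and 8. Its groups did not overlap, as for 12.2% of genes in that direction, and its log2 fold change was 0.47 ± 0.16 (edgeR adjusted p = 0.188). Ncor1, the corepressor recruited by REV-ERB proteins, stood at 0.23 ± 0.12, and Fbxl21, an F-box protein that binds CRY proteins, at -0.49 ± 0.28. The casein kinases Csnk1d and Csnk1e, which phosphorylate PER proteins and were singled out after their values were seen, stood at 0.01 ± 0.12 and 0.10 ± 0.13.

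Among 17 genes listed as rhythmic outputs in liver, 0 passed in edgeR, 1 was higher and 3 lower at an unadjusted p under 0.05, beside 9.74% and 10.1% of all tested genes, and the median log2 fold change was 0.08. These 4 of 17 were near the 19.8% of genes in either direction. Tsku, a secreted hepatocyte protein, had 220.2, 217 and 187 CPM in Sox9HKO replicates 9, 10 and 12 and 322, 814 and 775 CPM in Sox9f/f replicates 5, 6 and 8 (log2 fold change -1.61 ± 0.32, edgeR adjusted p = 0.139). Lpin1, a phosphatidate phosphatase, had 131, 138 and 192 CPM against 538, 315 and 293 CPM (-1.32 ± 0.26, adjusted p = 0.139). Alas1, the rate-limiting enzyme of haem synthesis, stood at -0.82 ± 0.23 and Ppara, a fasting-responsive nuclear receptor, at 0.63 ± 0.18. DESeq2 called these 4, with adjusted p of 1.05e-04, 2.98e-04, 0.0293 and 0.0466. Without Sox9f/f replicate 5, edgeR called Tsku (adjusted p = 0.0369). Usp2, a rhythmic deubiquitinase singled out after its values were seen, had 18.3, 50.3 and 42.6 CPM in Sox9HKO against 33.2, 50.7 and 66.6 CPM in Sox9f/f. Sox9HKO replicate 9 was its lowest library, as for Dbp. Usp2 overlaps Rnf26 on the opposite strand, which held a mean of 755 counts per library.

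Cues that reset or ride on the liver clock were read from 4 further lists, and in each of them edgeR called 0 genes. The counts at an unadjusted p under 0.05 stand beside 9.74% of all tested genes that were higher and 10.1% that were lower, and on lists of 5 to 8 genes they are few. Of 6 glucocorticoid-responsive genes 2 were lower and 0 higher at an unadjusted p under 0.05, with a median of -0.43. Fkbp5 and Tsc22d3, both induced by the glucocorticoid receptor, stood at -0.36 ± 0.11 and -0.69 ± 0.23, and neither overlapped between labels, as for 14.3% of genes in that direction. The list did not move one way, with 4 negative and 2 positive values. Sgk1 and Dusp1, also induced by the glucocorticoid receptor and singled out after their values were seen, stood at 0.83 ± 0.37 and 0.30 ± 0.25. Of 8 temperature-responsive genes 2 were lower and 0 higher, with a median of -0.50, led by the heat-shock genes Dnajb1 (-0.86 ± 0.21, DESeq2 adjusted p = 0.0173) and Hspa1a (-0.76 ± 0.33). Hspa1a has the near-identical copy Hspa1b, so its counts are uncertain. The cold-inducible genes Cirbp and Rbm3, singled out after their values were seen, stood at 0.40 ± 0.32 and 0.12 ± 0.20. Of 8 feeding-responsive genes 2 were higher and 1 lower, with a median of 0.37. Pdk4 and Irs2, both higher in fasted liver, stood at 1.56 ± 0.32 and 1.52 ± 0.43, with DESeq2 adjusted p of 1.71e-04 and 0.00770. Irs2 had 48.6, 71.0 and 119 CPM in Sox9HKO replicates 9, 10 and 12 and 45.3, 19.8 and 18.1 CPM in Sox9f/f replicates 5, 6 and 8. Of 5 immediate early genes 2 were lower and 0 higher, with a median of -0.58, among them Atf3 at -0.95 ± 0.32 and Ier2 at -0.73 ± 0.31. The part of any of these cues in the clock gene values was not tested.

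The genes whose log2 CPM over the 6 libraries ran most like that of Arntl, among 9772 protein-coding genes outside the lists with a mean of at least 5 CPM over the 6 libraries, were Tmem165 (Pearson r = 0.961, Spearman rho = 0.943), Ppp2r1b (r = 0.953, rho = 0.886), Golga7 (r = 0.952, rho = 0.714), Xpc (r = 0.948, rho = 0.943) and Spg20 (r = 0.946, rho = 0.943). Without the libraries farthest from the median of Arntl, Sox9HKO replicate 9 and Sox9f/f replicate 6, their r was 0.831 to 0.960. Among the 5 most like Dbp were Slc2a9 (r = 0.981, rho = 0.829), Gm20708 (r = 0.967, rho = 0.886), Pias4 (r = 0.958, rho = 0.771) and Pex19 (r = 0.958, rho = 0.943). Without Sox9HKO replicates 9 and 10 the r of these 4 was 0.705 to 0.947. Gm20708 was at 0.411 CPM in Sox9HKO replicate 9 and at 8.82 to 16.6 CPM in the other libraries. Slc2a9, a urate transporter, had 15.4, 30.4 and 27.9 CPM in Sox9HKO replicates 9, 10 and 12 and 30.6, 31.0 and 26.1 CPM in Sox9f/f replicates 5, 6 and 8, low in the same library as Dbp. These are descriptions over 6 libraries that share their scaling, picked as the highest of many, and they carry no p. With library-size scaling the top 5 shared 1 gene with the 5 most like Arntl here and 2 with the 5 most like Dbp.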

How the data were processed

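RNA-seq of mouse liver was compared between 3 libraries labelled Sox9HKO and 3 labelled Sox9f/f. Messenger RNA was separated from total RNA per the labels' protocols. The deposited table gives raw counts per gene and FPKM, both per the file headers. Per the submitters' processing notes, the tools were HISAT2 2.0.4 with StringTie 1.3.0, and 2 build names appear, GRCm38.p4 besides mm10. Their roles, the counting tool and its use of strand are not stated in what was used here.

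The test of counts was that of edgeR 4.0.16 (R 4.3.3, filterByExpr, TMM, robust quasi-likelihood test, no covariates), which kept 14137 genes and left out 20608, with Benjamini-Hochberg adjustment over all of them at 0.05. Each SE is the fold change over the root of its F statistic, and log2 CPM used a prior count of 2. Alternatives used DESeq2 1.42.0 (no adjusted p for 558 genes), limma 3.58.1 (voom with sample weights, or log2(FPKM + 0.5)), other scalings and filters, and each library left out. The members and lists were chosen with earlier results of these data known. Named genes were the 10 members, Sox9, the accessory factors, the 4 or 2 genes of smallest p in each other list, and the 5 genes most like Arntl and Dbp. No label says that libraries of a group came from separate mice, so p-values measure the spread between samples, which may be technical in part. No libraries agreed within sampling noise (chi-square per degree of freedom of 34.9 or more). By this measure Sox9HKO replicate 12, and not replicate 9, stood farthest from the others, at 87.8 to 109. Sox9HKO replicates 9 and 10 differed by 36.6, and pairs of Sox9f/f libraries by 34.9 to 38.3. Promoter windows came from RefSeq on GRCm38.p6, and gene coordinates are those of the table on GRCm38. Figures used matplotlib 3.10.9. Some genes that the rule named are not reported here.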

Additional observations from a re-analysis of the deposited data

How the results depend on the processing

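No core clock member was called under any alternative. All genes called numbered 0 in the fit reported, 605 in DESeq2, 10 without a filter and 0 to 3 with one library left out. Genes called in the other clock lists numbered 0, 9 in DESeq2 and 0 to 1 with one library left out. Of 150 core fold changes over the alternatives 142 kept their sign and 8 reversed. Npas2 turned to -0.11 under limma voom and -0.010 on FPKM. With one library left out, Npas2 ranged from -1.41 to 0.46, Arntl from -0.75 to 0.84, Cry2 from -0.011 to 0.33, Dbp from -0.41 to 0.040 and, with no change of sign, Nr1d1 from -0.87 to -0.07. Of 390 values of other named genes 10 reversed and 11 became calls, 9 of them in DESeq2. Bhlhe41 turned to 0.015 under voom, 0.026 with library-size scaling and 0.010 on FPKM, and ranged from -0.26 to 0.057 with one library left out. Tef turned to 0.027 with upper-quartile scaling, 0.080 with library-size scaling and 0.041 on FPKM, and ranged from -0.20 to 0.20. With library-size scaling the median of all genes was 0.11, where it was 0.00 with TMM. The cause of these reversals was not tested. The median within-group SD of the core members, computed without Sox9HKO replicate 9 after the data were seen, was 0.45. Depth limits Npas2 and Arntl, which rest on 9 to 72 and 32 to 197 counts. No paired analysis was possible because the groups share no replicate numbers.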
